A study of Pleurotus tuoliensis with 2 samples.

Results

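Trehalose is a disaccharide of 2 glucose units that many fungi store in their hyphae and use as a carbon reserve and as a protectant of proteins and membranes. In the route known best from yeast, trehalose 6-phosphate synthase joins UDP-glucose to glucose 6-phosphate, and a phosphatase then removes the phosphate group. Trehalases hydrolyze trehalose to glucose. Trehalose phosphorylase, an enzyme found in many mushrooms including *Pleurotus*, splits trehalose with phosphate into glucose and glucose 1-phosphate, and the reaction can run in either direction.

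The unigenes of these enzymes were examined in mycelia of *P. tuoliensis* strain ACCC 50869, an edible mushroom also called Bailinggu. Unigenes were taken when the name of the best Swiss-Prot match contained trehalose or trehalase, which gave 10 of the 17030 unigenes of the de novo assembly. Mature mycelia came from 3 bottles kept in the dark at 17 °C for 35 days after the first growth phase. Immature mycelia came from 3 bottles sampled on day 0 of that phase, at the end of 37 days in the dark at 25 °C on 820 g of substrate. Maturity, temperature and age of the culture changed together, so their effects cannot be told apart. The strain and the substrate were shared by all 6 bottles, and each library stands for 1 bottle.

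Levels are given as FPKM, fragments normalized to the length of the unigene and the mapped fragments of the library, so they can be compared between unigenes. The table gives no fragment counts, and the number of fragments behind each value was not estimated. The paper lists the clean reads of each library, which were fewest for immature bottle 1. For the 7 members shorter than 2000 bases, the smallest values above 0 among unigenes of similar length were 0.10 to 0.90 FPKM, and each member value was at least 40.8 times as large. For the 3 longer members fewer unigenes of similar length were available. The margin ranged from 3.85 times for the phosphatase DN9027_c1_g2 to 11.1 times for the trehalase DN9056_c1_g1. Only 44 unigenes, this member included, were of similar length to DN9027_c1_g2, and their smallest values above 0 were 7.91 to 12.3 FPKM. These margins refer to the least expressed unigenes of similar length and do not measure a detection limit. No member was listed at 0 in any bottle. FPKM of all unigenes summed to 1229320 to 1238510 in the mature and to 1206300 to 1223660 in the immature bottles. Of the 13611 unigenes with a match in the Nr protein database, 90.3% were matched to a *Pleurotus* protein. All 5 unigenes of the fruiting body protein SC3, a hydrophobin of aerial hyphae and fruiting bodies, were above 0 in every bottle and summed to 193 to 206 FPKM in the mature and 235 to 270 FPKM in the immature bottles. The paper reports upregulation in mature mycelia for an individual unigene of this protein, with a similar pattern in RT-qPCR. The sum does not show the level of any individual unigene, so that statement was not tested here. None (0) of the unigenes had a Swiss-Prot match named hydrophobin. No unigene (0) had one named for the plant proteins ribulose bisphosphate carboxylase or chlorophyll a-b binding protein. Other annotations were not searched for these names. On the first principal component of unigenes of at least 500 bases, mature bottle 1 scored 6.14, between 26.6 and 29.3 for the other mature bottles and −27.2 to −16.0 for the immature bottles. Among the 10 members, mature bottle 1 was the lowest mature bottle for 8.

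The members fell into 5 synthase unigenes, 1 phosphatase, 2 phosphorylases and 2 trehalases. They had 556 to 7476 bases, and each had a mean FPKM above the median of 26.7 FPKM over all unigenes. The trehalose phosphorylase unigene DN6259_c0_g1 stood far above the other members, with a mean of 342 FPKM over the 6 bottles, which placed it 477th of the 17030 unigenes. The other 9 members had means between 33.0 FPKM (DN7039_c0_g1, a synthase unigene) and 58.5 FPKM (DN6543_c0_g1, also a synthase unigene). No further unigene (0) carried a trehalose term in its Nr, eggNOG or GO annotation or the KEGG number of a member. None (0) was named in Nr for glycosyltransferase family 20, the family of the synthases, or for glycoside hydrolase families 37 and 65, the families of trehalases.

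The 10 unigenes were matched to 7 different Nr proteins, and whether unigenes with the same match come from 1 gene or from similar copies was not tested. In Nr, 9 of them were matched to a *P. ostreatus* protein, and 3 synthase unigenes, DN7039_c0_g1, DN6543_c0_g1 and DN2665_c0_g1, were matched to the same glycosyltransferase family 20 protein. In Swiss-Prot these 3 carried different names: the regulatory subunit TSL1 of *Saccharomyces cerevisiae*, a putative synthase subunit of *Schizosaccharomyces pombe* and the synthase TPS1 of *Yarrowia lipolytica*. Each carried the GO term for trehalose biosynthesis but not the term for the synthase activity. The other pair of synthase unigenes, DN8283_c0_g2 and DN8283_c0_g1, was matched to a second family 20 protein and to the synthases tpsA and tpsB of *Aspergillus niger*. These 2 carried the GO terms for the synthase activity, the synthase complex and the response to oxidative stress. The phosphatase unigene DN9027_c1_g2 was matched to another family 20 protein, and it carried the GO terms for the phosphatase activity and the cellular response to heat. Both phosphorylase unigenes were matched to the same Swiss-Prot protein of *Pleurotus pulmonarius*, and DN6259_c0_g1 to a glycosyltransferase family 4 protein in Nr. Where unigenes cover parts of 1 gene or near-identical copies, the abundance estimate divides shared fragments between them, and their values are then not independent.

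Expression in mature and immature mycelia was compared with limma on log2(FPKM + 1). The test was made on the 16496 unigenes whose mean FPKM exceeded 1, a filter that all 10 members passed. Log2 ratios were taken as mature minus immature and are given with a standard error (SE) and a Benjamini-Hochberg adjusted p over all unigenes tested. At an adjusted p of 0.05, none (0) of the 10 members differed, against 0.0667% of all unigenes tested. The study took unigenes with |log2 ratio| ≥ 1 and unadjusted p ≤ 0.05, and the number of members past both was also 0, against 3.01%. The p limit alone was met by 3 members, all higher in mature mycelia and all matched to the same protein. Of all unigenes tested 15.4% met it, 6.09% with higher and 9.33% with lower values in mature mycelia. The median log2 ratio was 0.20 over the members and −0.07 over all unigenes tested. Fewer cells of a type and less RNA per cell cannot be told apart in these bulk samples.

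**Figure D1:**
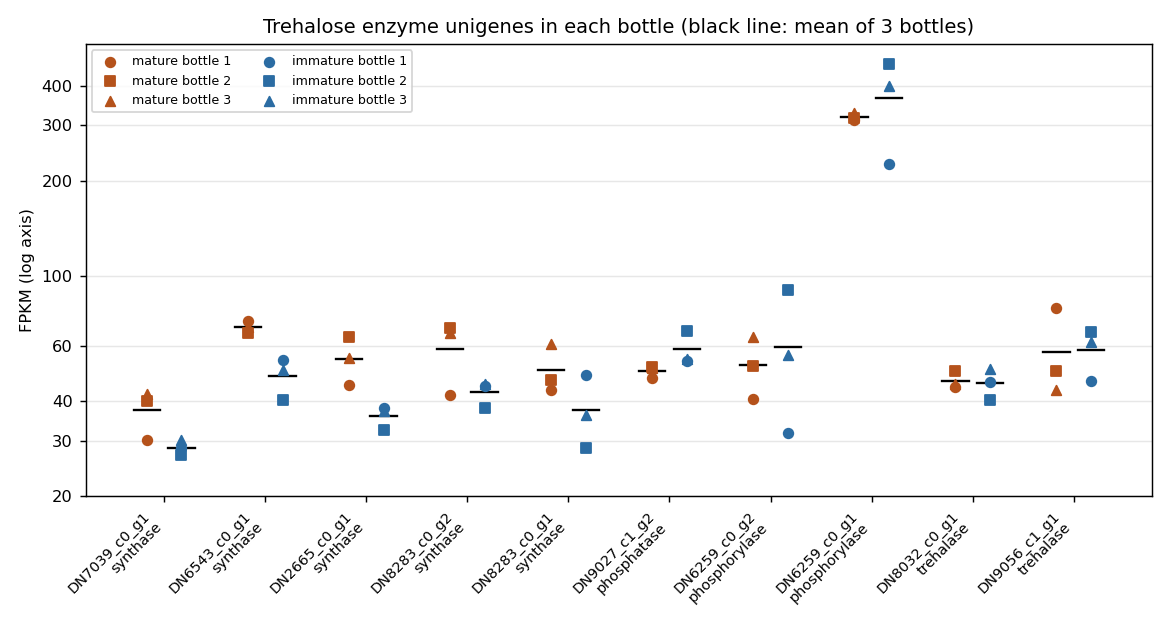
FPKM of the 10 trehalose enzyme unigenes (log axis) in 3 mature bottles (orange, left) and 3 immature bottles (blue, right), with black lines for the group means. The phosphorylase DN6259_c0_g1 lies at 226 FPKM or above in every bottle, and the mature and immature bottles do not overlap for DN7039_c0_g1, DN6543_c0_g1, DN2665_c0_g1 and DN9027_c1_g2.

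The 3 synthase unigenes matched to the same family 20 protein were each higher in all mature than in all immature bottles, although none of them passed the adjusted threshold. They were counted as synthases by their Swiss-Prot names and did not carry the GO term for the synthase activity. DN6543_c0_g1, matched to the *S. pombe* subunit, had 71.9, 66.0 and 68.7 FPKM in mature bottles 1, 2 and 3 and 53.9, 40.4 and 50.4 FPKM in immature bottles 1, 2 and 3. The highest immature bottle was therefore well below the lowest mature bottle. Its mean was 68.9 ± 2.94 FPKM in mature and 48.2 ± 7.02 FPKM in immature mycelia (SD, n = 3 each), which gave a log2 ratio of 0.51 with an SE of 0.13 (adjusted p = 0.190). DN2665_c0_g1, matched to TPS1 of *Y. lipolytica*, had 44.9, 63.9 and 54.7 FPKM in the mature bottles and 38.2, 32.5 and 37.2 FPKM in the immature bottles. Its log2 ratio of 0.58 (SE 0.15, adjusted p = 0.199) was the largest among the members. DN7039_c0_g1, matched to TSL1, a subunit of the yeast synthase complex, had 30.2, 40.1 and 42.1 FPKM in the mature bottles, against 28.3, 26.9 and 30.2 FPKM in the immature bottles. Mature bottle 1, at 30.20 FPKM, and immature bottle 3, at 30.18 FPKM, were separated by only 0.02 FPKM, and the log2 ratio was 0.37 (SE 0.15, adjusted p = 0.321).
Weighted by their lengths, the 3 unigenes had a mean of 51.7 ± 3.93 FPKM in mature and 36.6 ± 3.51 FPKM in immature mycelia (SD, n = 3 each), 1.41 times as high. Their levels relative to each other varied between bottles, with DN2665_c0_g1 at 1.21 to 1.59 times the FPKM of DN7039_c0_g1 and DN6543_c0_g1 at 1.03 to 1.60 times that of DN2665_c0_g1. In all, the groups did not overlap for 3 members with higher values in mature mycelia, against 8.69% of all unigenes tested, and for 1 member with lower values, against 14.2%. These are 4 of the 10 members, where 22.9% of all unigenes tested did not overlap. The 3 share a best match, so they may not be separate observations.

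The other synthase unigenes, matched to the *A. niger* trehalose 6-phosphate synthases, had higher means in mature mycelia but overlapped between the groups. DN8283_c0_g2, matched to tpsA, had 41.9, 68.4 and 65.9 FPKM in mature bottles 1, 2 and 3, against 44.6, 38.1 and 45.2 FPKM in immature bottles 1, 2 and 3. Mature bottle 1 lay within the immature bottles and the other mature bottles well above them. The log2 ratio was 0.42 (SE 0.21, adjusted p = 0.383), and without mature bottle 1 it was 0.65 (SE 0.12, adjusted p = 0.107, with 0.107 to 0.669 over all alternatives). Without mature bottle 2 or 3 it was 0.30 or 0.33. DN8283_c0_g1, matched to tpsB and only 556 bases long, had 43.5, 46.6 and 60.6 FPKM in the mature bottles, against 48.3, 28.4 and 36.0 FPKM in the immature bottles. Here immature bottle 1 lay above both mature bottles 1 and 2, and the log2 ratio was 0.43 (SE 0.23, adjusted p = 0.412). It was 0.25 without immature bottle 2, 0.29 without mature bottle 3 and 0.62 without immature bottle 1. The FPKM of DN8283_c0_g2 was 0.92 to 1.47 times that of DN8283_c0_g1.
All 5 synthase unigenes thus had log2 ratios above 0, from 0.37 to 0.58, where 42.3% of all unigenes tested were above 0. These 5 were matched to only 2 Nr proteins, so they may not be separate observations. The 95% intervals of the 5 reached from −0.12 to 0.98, so an increase of 2-fold on the FPKM + 1 scale lay outside each of them.

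The phosphatase unigene was the only member with lower values in all mature bottles. Trehalose phosphatase releases free trehalose from trehalose 6-phosphate, and in yeast the enzyme is Tps2. DN9027_c1_g2 had 47.5, 51.5 and 51.1 FPKM in mature bottles 1, 2 and 3, against 53.8, 66.9 and 54.4 FPKM in immature bottles 1, 2 and 3. Immature bottle 2 stood highest, and the other immature bottles were close to the mature ones. The means were 50.0 ± 2.20 FPKM in mature and 58.4 ± 7.37 FPKM in immature mycelia (SD, n = 3 each). The log2 ratio was −0.21 (SE 0.12, adjusted p = 0.431), with a 95% interval of −0.50 to 0.08. Without immature bottle 2 the log2 ratio was −0.11. With 7476 bases it was the longest member, and whether the assembled sequence holds a single transcript was not tested.

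Trehalose phosphorylase had the most abundant transcript of the 10 members in every bottle, with no separation between mature and immature mycelia. DN6259_c0_g1 had 311, 317 and 328 FPKM in mature bottles 1, 2 and 3, against 226, 471 and 401 FPKM in immature bottles 1, 2 and 3. The mature bottles were close together and lay inside the wide range of the immature bottles. The means were 319 ± 8.61 FPKM in mature and 366 ± 126 FPKM in immature mycelia (SD, n = 3 each), and the log2 ratio was −0.13 (SE 0.27, adjusted p = 0.843). The shorter unigene DN6259_c0_g2, of 597 bases, had 40.7, 51.5 and 63.7 FPKM in the mature bottles and 31.8, 90.3 and 56.1 FPKM in the immature bottles, and its log2 ratio was −0.09 (SE 0.39, adjusted p = 0.930). Both phosphorylase unigenes were lowest in immature bottle 1 and highest in immature bottle 2. DN6259_c0_g1 had 5.15 to 7.64 times the FPKM of DN6259_c0_g2, and whether they are parts of 1 transcript or separate copies was not tested.
The estimates rested on the immature bottles. For DN6259_c0_g1 the log2 ratio was −0.45 without immature bottle 1 and 0.08 without immature bottle 2. For DN6259_c0_g2 these values were −0.47 and 0.27, and it was 0.07 without mature bottle 1. The 95% intervals, −0.80 to 0.54 for DN6259_c0_g1 and −1.03 to 0.85 for DN6259_c0_g2, were the widest of the 10.

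**Figure D2:**
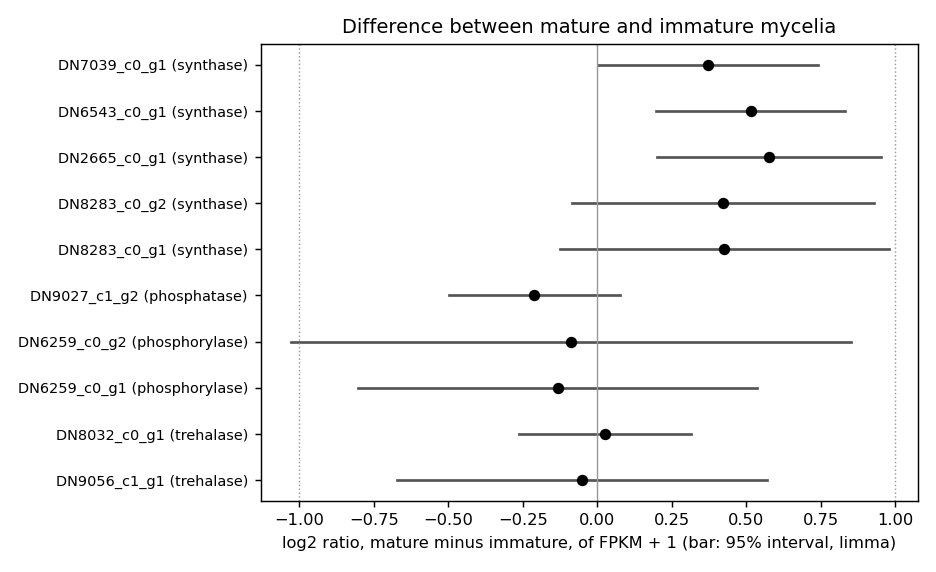
Log2 ratio of FPKM + 1, mature minus immature mycelia, for each of the 10 unigenes, with 95% intervals from limma as bars and dotted lines at a log2 ratio of −1 and 1. The 5 synthase unigenes lie between 0.37 and 0.58, the other members lie between −0.21 and 0.03, and the intervals of DN7039_c0_g1, DN6543_c0_g1 and DN2665_c0_g1 do not include 0 before adjustment.

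The trehalases, which hydrolyze trehalose, had nearly the same mean in mature and immature mycelia. DN8032_c0_g1, matched to the neutral trehalase of *Neurospora crassa* and carrying the GO terms for calcium binding and the cytosol, had 44.2, 49.9 and 45.2 FPKM in mature bottles 1, 2 and 3, against 46.1, 40.4 and 50.7 FPKM in immature bottles 1, 2 and 3. It was the steadiest member, with 1.26-fold between the highest and the lowest bottle. Its log2 ratio was 0.03 (SE 0.12, adjusted p = 0.933), with a 95% interval of −0.26 to 0.32. DN9056_c1_g1, whose best Swiss-Prot match was the trehalase of rabbit, had 78.7, 49.8 and 43.4 FPKM in the mature bottles, against 46.5, 66.4 and 61.6 FPKM in the immature bottles. Mature bottle 1 was the highest of the 6 bottles, and mature bottle 3 was the lowest. The log2 ratio was −0.05 (SE 0.25, adjusted p = 0.938), −0.30 without mature bottle 1 and 0.12 without mature bottle 3. Both trehalases were matched to glycoside hydrolase family 37 proteins of *P. ostreatus*, a different protein for each, and both had the KEGG number K01194. The FPKM of DN9056_c1_g1 was 0.96 to 1.78 times that of DN8032_c0_g1.

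Summed by role, the phosphorylase unigenes made up 46.6%, 45.8% and 47.6% of the trehalose enzyme FPKM in mature bottles 1, 2 and 3, against 41.8%, 62.3% and 55.5% in immature bottles 1, 2 and 3. The synthase unigenes summed to 232, 285 and 292 FPKM in the mature bottles and to 213, 166 and 199 FPKM in the immature bottles, a ratio of means of 1.40 without overlap. The phosphatase and the trehalases had ratios of 0.857 and 0.999. The sum of the 4 roles was 794 ± 35.7 FPKM in mature and 780 ± 146 FPKM in immature mycelia (SD, n = 3 each). The phosphorylase sum was 352 to 392 FPKM in the mature bottles and 258 to 561 FPKM in the immature bottles.
Where unigenes are parts of 1 transcript, their sum counts it more than once. With only the longest unigene of each Nr protein (this setting was added once the values were known), the synthases had 72.1, 109 and 108 FPKM in the mature bottles, against 73.0, 65.1 and 75.4 FPKM in the immature bottles. The groups then overlapped, since mature bottle 1 lay below immature bottles 1 and 3, while the ratio of means was 1.35. The synthase sum was 4.89, 5.54 and 5.71 times the phosphatase level in the mature bottles and 3.97, 2.49 and 3.66 times in the immature bottles. With only the longest unigenes these were 1.52, 2.11 and 2.11 times in the mature bottles and 1.36, 0.973 and 1.38 times in the immature bottles. The ratios to the other roles overlapped between the groups. The synthase sum was 1.89, 2.86 and 3.30 times the trehalase sum in the mature bottles and 2.30, 1.56 and 1.77 times in the immature bottles. It was 0.661, 0.773 and 0.746 times the phosphorylase sum in the mature bottles and 0.827, 0.296 and 0.436 times in the immature bottles. Sums and ratios are descriptions and were not tested.

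**Figure D3:**
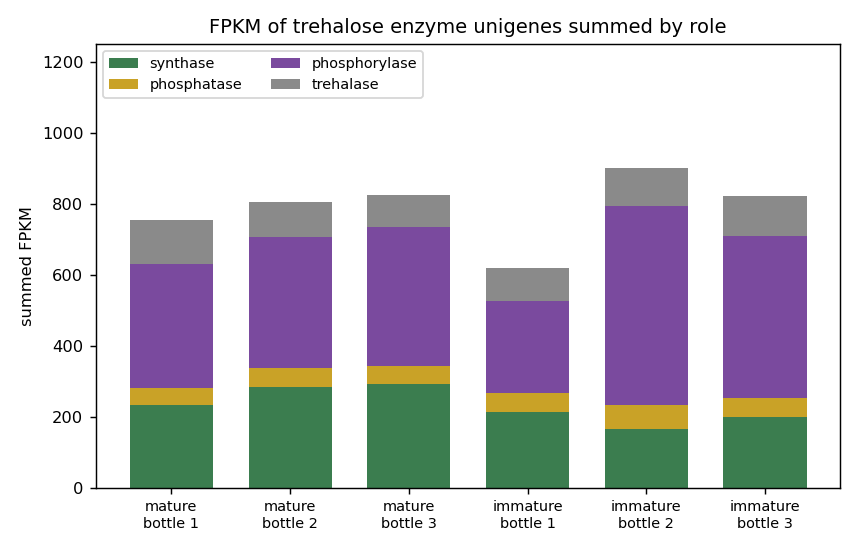
Summed FPKM of the 5 synthase, 1 phosphatase, 2 phosphorylase and 2 trehalase unigenes, stacked for each of 3 mature bottles (left) and 3 immature bottles (right). The phosphorylase segment ranges from 258 to 561 FPKM in the immature bottles and from 352 to 392 FPKM in the mature bottles, and the synthase segment is higher in each mature bottle than in each immature bottle.

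Enzymes that supply glucose 6-phosphate and UDP-glucose, the substrates of the synthase, were listed by their Swiss-Prot names as 9 unigenes. None (0) passed the adjusted p of 0.05 or the thresholds of the study, 1 met the unadjusted p limit and was higher, where 6.09% of all unigenes tested did so, and their median log2 ratio was 0.26. The most abundant was DN7643_c0_g4, matched to UTP-glucose-1-phosphate uridylyltransferase, which makes UDP-glucose. It had 397, 387 and 431 FPKM in mature bottles 1, 2 and 3, against 260, 402 and 366 FPKM in immature bottles 1, 2 and 3, and its log2 ratio was 0.26 (SE 0.18, adjusted p = 0.528), and 0.08 without immature bottle 1. A second unigene with the same Nr match, DN7643_c0_g2, had 337, 260 and 295 FPKM in the mature bottles, against 111, 314 and 272 FPKM in the immature bottles. It was named after its values were seen, because immature bottle 1 was the lowest bottle here as for both phosphorylase unigenes. Its log2 ratio was 0.48 with all bottles, 0.02 without immature bottle 1 and 0.76 without immature bottle 2. DN10262_c0_g1 had the only low unadjusted p and was named for that after its values were seen. Its match was phosphoglucomutase, which interconverts glucose 1-phosphate and glucose 6-phosphate. It had 138, 114 and 124 FPKM in the mature bottles, against 108, 100 and 95.1 FPKM in the immature bottles. The groups did not overlap, and the log2 ratio was 0.31 (SE 0.11, adjusted p = 0.273). Another phosphoglucomutase unigene, DN8021_c0_g1, was also named afterwards and overlapped between the groups. Its means were 22.5 FPKM in mature and 24.1 FPKM in immature mycelia (log2 ratio −0.10, adjusted p = 0.794).

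Glycogen, a branched glucan, is the other reserve of glucose in fungi, and its enzymes were represented by 13 unigenes. None (0) passed the adjusted p of 0.05. At the thresholds of the study 2 were higher and none (0) was lower, against 1.18% and 1.82% of all unigenes tested, and the median log2 ratio was 0.34. The unadjusted p limit was met by 4 with higher and 1 with lower values, against 6.09% and 9.33%, and the same numbers did not overlap between the groups, against 8.69% and 14.2%. Both unigenes past the thresholds were matched to the 1,4-α-glucan-branching enzyme, which adds the branches to glycogen, and to the same *P. ostreatus* protein. Of these, the paper also names DN4658_c0_g1 as upregulated in mature mycelia. DN6182_c0_g1 had 94.8, 179 and 206 FPKM in mature bottles 1, 2 and 3, against 72.3, 51.8 and 63.1 FPKM in immature bottles 1, 2 and 3. Its log2 ratio was 1.28 (SE 0.31, adjusted p = 0.183). DN4658_c0_g1 had 74.7, 122 and 142 FPKM in the mature bottles, against 60.1, 42.9 and 42.8 FPKM in the immature bottles. Its log2 ratio was 1.17 (SE 0.27, adjusted p = 0.177), and 0.98 without mature bottle 3. In both, mature bottle 1 was nearest to the immature bottles, as for the synthase unigenes DN7039_c0_g1, DN2665_c0_g1 and DN8283_c0_g2. The most abundant unigene of the list, DN5635_c0_g1 of glycogen phosphorylase, was only 240 bases long and had 48.2, 332 and 57.2 FPKM in the mature bottles, against 107, 139 and 188 FPKM in the immature bottles. Mature bottle 2 alone lay above the immature bottles, and the log2 ratio was −0.53 with an SE of 0.74 (adjusted p = 0.761). It was −1.41 without mature bottle 2, −0.03 without mature bottle 1, −0.15 without mature bottle 3 and −0.32 without immature bottle 3. A longer unigene with the same Nr match, DN5635_c0_g2 of 1525 bases, was picked once its values were known. It had 63.9, 150 and 116 FPKM in the mature bottles, against 130, 75.5 and 124 FPKM in the immature bottles. Both group means were 110 FPKM. The fit put its log2 ratio at −0.04, with a wide 95% interval of −0.93 to 0.84 (adjusted p = 0.964). The remaining unigenes that met the unadjusted p limit were named after their values were seen. DN2863_c0_g1, matched to glycogenin, which primes glycogen synthesis, was lower in mature mycelia (log2 ratio −0.45, adjusted p = 0.215). It had 18.1, 19.9 and 20.2 FPKM in the mature bottles, against 30.6, 25.2 and 24.8 FPKM in the immature bottles. Another glycogenin unigene, DN4734_c0_g2, did not meet that limit and was also named afterwards. It had a higher mean, 76.6 FPKM over the 6 bottles, and overlapped between the groups (log2 ratio −0.10, adjusted p = 0.821). DN3753_c0_g3 and DN3753_c0_g4, matched to the glycogen debranching enzyme, which takes part in glycogen breakdown, were higher, with log2 ratios of 0.50 and 0.48 (adjusted p = 0.177 and 0.190). Both were matched to the same Nr protein, as were DN3753_c0_g1 and DN3753_c0_g2, which were also named afterwards. The latter pair overlapped between the groups, with log2 ratios of 0.26 and 0.45 (adjusted p = 0.501 and 0.359). Glycogen synthase unigenes DN6344_c0_g1 and DN5007_c0_g1, also named afterwards, overlapped too, with log2 ratios of 0.28 and 0.34 (adjusted p = 0.422 and 0.485).
Mannitol, a sugar alcohol, is a further soluble reserve of mushrooms. The single unigene of the mannitol list, the NADP-dependent mannitol dehydrogenase DN4803_c0_g1, had 30.7, 18.8 and 23.2 FPKM in the mature bottles, against 31.4, 24.3 and 31.5 FPKM in the immature bottles (log2 ratio −0.27, SE 0.21, adjusted p = 0.574). Its log2 ratio was −0.11 without mature bottle 2 and −0.45 without mature bottle 1. In yeast, neutral trehalase is phosphorylated by cAMP-dependent protein kinase and bound by 14-3-3 proteins. Of the 5 unigenes of that kinase and of 14-3-3 proteins, 4 had a mean FPKM above 1, none (0) of these reached even an unadjusted p of 0.05, and their log2 ratios ranged from −0.18 to 0.08. The most abundant was the 14-3-3 unigene DN7138_c0_g1, with 291, 191 and 210 FPKM in the mature bottles and 217, 277 and 286 FPKM in the immature bottles.

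**Figure D4:**
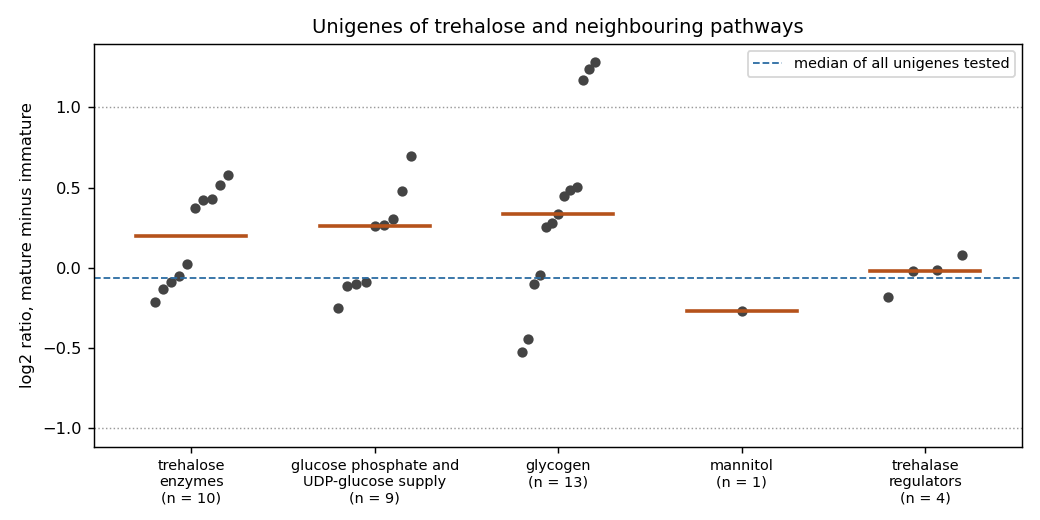
Log2 ratio, mature minus immature mycelia, of every tested unigene of the trehalose enzymes (n = 10), the glucose phosphate and UDP-glucose supply list (n = 9), the glycogen list (n = 13), the mannitol list (n = 1) and the trehalase regulator list (n = 4). Orange lines are list medians, and the dashed line at −0.07 is the median of all unigenes tested. The points above the dotted line at 1 in the glycogen list include both branching enzyme unigenes and DN5635_c0_g4. That unigene, of 203 bases, was above 0 only in mature bottle 3 (log2 ratio 1.24).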

How the data were processed

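The authors trimmed reads with cutadapt and used Trinity for assembly and TGICL-2.1 for clustering. The longest transcript per cluster served as the unigene, and RSEM gave its abundance. Their deposited table gives FPKM, with unigene lengths and matches in protein and pathway databases. Its 6 library columns were assigned to the 2 GEO samples by name, 3 bottles each. The authors compared the groups with DESeq2. The paper describes the values compared as normalized read counts, given as FPKM.

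Mature and immature bottles were compared with limma 3.58.1 in R 4.3.3 (trend=TRUE, robust=FALSE, two-sided, no covariate) on log2(FPKM + 1) for unigenes with a mean FPKM above 1, adjusted over all 16496. With 3 bottles against 3, an exact permutation test cannot give a p below 0.1. Members and lists were chosen by protein names, with earlier results of these data known. All 10 members were named; of each list, up to 4 unigenes past a threshold and the most abundant one, and any others are marked. The fit was repeated with each bottle left out, with a replicate block, a length limit, and other filters, pseudocounts, scalings and variance priors. Figures were drawn with matplotlib 3.10.9. Unigene sequences were not used here.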

Additional observations from a re-analysis of the deposited data

How the results depend on the processing

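None (0) of the 10 members passed an adjusted p of 0.05 under any of the 17 alternatives (limma); the lowest adjusted p was 0.107. Between 2 and 4 members met the unadjusted p limit of 0.05. Directions turned only when a bottle was left out, in 4 members: log2 ratios then ranged from −0.47 to 0.27 for DN6259_c0_g2, from −0.45 to 0.081 for DN6259_c0_g1, from −0.059 to 0.10 for DN8032_c0_g1 and from −0.30 to 0.12 for DN9056_c1_g1. The glycogen unigenes past the study's thresholds numbered 1 to 3 when a bottle was left out, with the 1 found without mature bottle 3. Over all unigenes, 11 passed the adjusted p, but 101 among those of at least 500 bases and 0 to 8 when a bottle was left out; the causes were not tested. In the limma fit 195 unigenes were higher and 301 lower at the study's thresholds, but 247 and 228 after quantile normalization, which turned no member. The study's own counts came from DESeq2 and differ from these.

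The paper describes a random choice of bottles at each stage. Deviations of same-numbered bottles from their group means correlated at −0.24, −0.20 and 0.02. Within a group the deviations sum to 0, so these values cannot decide whether bottles were paired. With a replicate block 0 members passed the adjusted p, 2 met the unadjusted p limit, and 0 of all unigenes passed.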
